A study of Mus musculus with 12 samples.

Results

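The colony-stimulating factors and their receptors were followed in cultured stroma of the mouse small intestine. The family was taken by symbol and held 8 of the 23329 genes listed: the ligands Csf1, Il34, Csf2 and Csf3, and the receptor genes Csf1r, Csf2ra, Csf2rb and Csf3r. After LPS, the lipopolysaccharide by which cells sense Gram-negative bacteria, Csf2 was higher in both stages, from 0 or 1 count in the PBS libraries to 186 to 1795 counts in the LPS libraries. Csf3 was higher in all 6 LPS libraries than in the PBS libraries of its stage, and Csf1 was the most abundant member in every group. Il34, on few counts, passed the test for LPS in embryonic but not in adult cells. The difference between the stages in its LPS response did not pass, and its embryonic call was lost in several alternative fits. No receptor passed the test for LPS in either stage, and the receptors were highest in the embryonic culture with the most macrophage marker RNA.

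Colony-stimulating factors are secreted proteins that keep blood cells alive and drive their differentiation. CSF1 (M-CSF) and IL-34 both bind CSF1R, a receptor tyrosine kinase on which most tissue macrophages depend, intestinal ones included. CSF2 (GM-CSF) binds a receptor made of the alpha chain CSF2RA and the common beta chain CSF2RB, which signals through JAK2 and STAT5, and CSF3 (G-CSF) binds CSF3R, best known from neutrophils and their precursors. In tissue the ligands come largely from stromal, epithelial or activated immune cells, and the receptors sit mainly on myeloid cells. In RefSeq (GRCm38.p6) Csf1 lies at chr3:107741048-107760469, Il34 at chr8:110741829-110805949, Csf2 at chr11:54247270-54249899, Csf3 at chr11:98700183-98703631, Csf2ra at chr19:61217191-61228461, Csf2rb at chr15:78325800-78351001, Csf3r at chr4:126023441-126044975 and Csf1r on chromosome 18.

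The cells were cultured at passage 2 to 3 from the small intestine of C57BL6/J mice and are called intestinal myofibroblasts in the labels. The 4 groups were embryonic (E14.5) cells with LPS, embryonic cells with PBS, adult cells with LPS and adult cells with PBS, with 3 libraries each. Embryonic cultures pooled several embryos, adult mice were given no exact age, and LPS from Escherichia coli O111:B4 was added at a final 10 µg/µl, as the labels state it, for 6 h. All groups shared the digestion and plating steps, without a sort for stromal cells, so that other cells of the gut wall could remain. Before these steps, villi were scraped off the opened adult intestines, whereas embryonic intestines were cut into pieces. Effects of stage and of this preparation cannot be told apart.

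The study names 3 independent cultures, generated from adult mice or from pooled embryos. Whether an LPS and a PBS library of 1 number shared a culture is not stated. The libraries held 18850224 to 32672370 counts on genes. Levels are given as CPM, counts per 1000000 after TMM scaling of the library sizes, and 3 counts corresponded to 0.0907 to 0.145 CPM. The defining myofibroblast markers were high in all groups, with Col1a1 at 3551 to 12835 CPM and Acta2 at 6619 to 14971 CPM. The 12 stroma markers together summed to 22867 to 47571 CPM, but 1 of them, Pdgfra, was 2.25 to 5.57 CPM in embryonic and 28.6 to 121 CPM in adult libraries. Macrophage markers were also present and differed between libraries: the summed level of 16 markers was 218, 442 and 2764 CPM in embryonic PBS libraries 1, 2 and 3, and 196, 1007 and 2202 CPM in embryonic LPS libraries 1, 2 and 3. In adult cells the same sum was 59.3 to 191 CPM with PBS and 51.6 to 201 CPM with LPS. Endothelial markers summed to 15.3 to 35.4 CPM in embryonic and 14.2 to 1754 CPM in adult libraries. LPS and PBS libraries of the same stage and number deviated together from their group means (correlation across genes 0.610 to 0.850), so each LPS comparison was fitted both without and with a term for each numbered pair of a stage, called the replicate block.

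**Figure D1:**
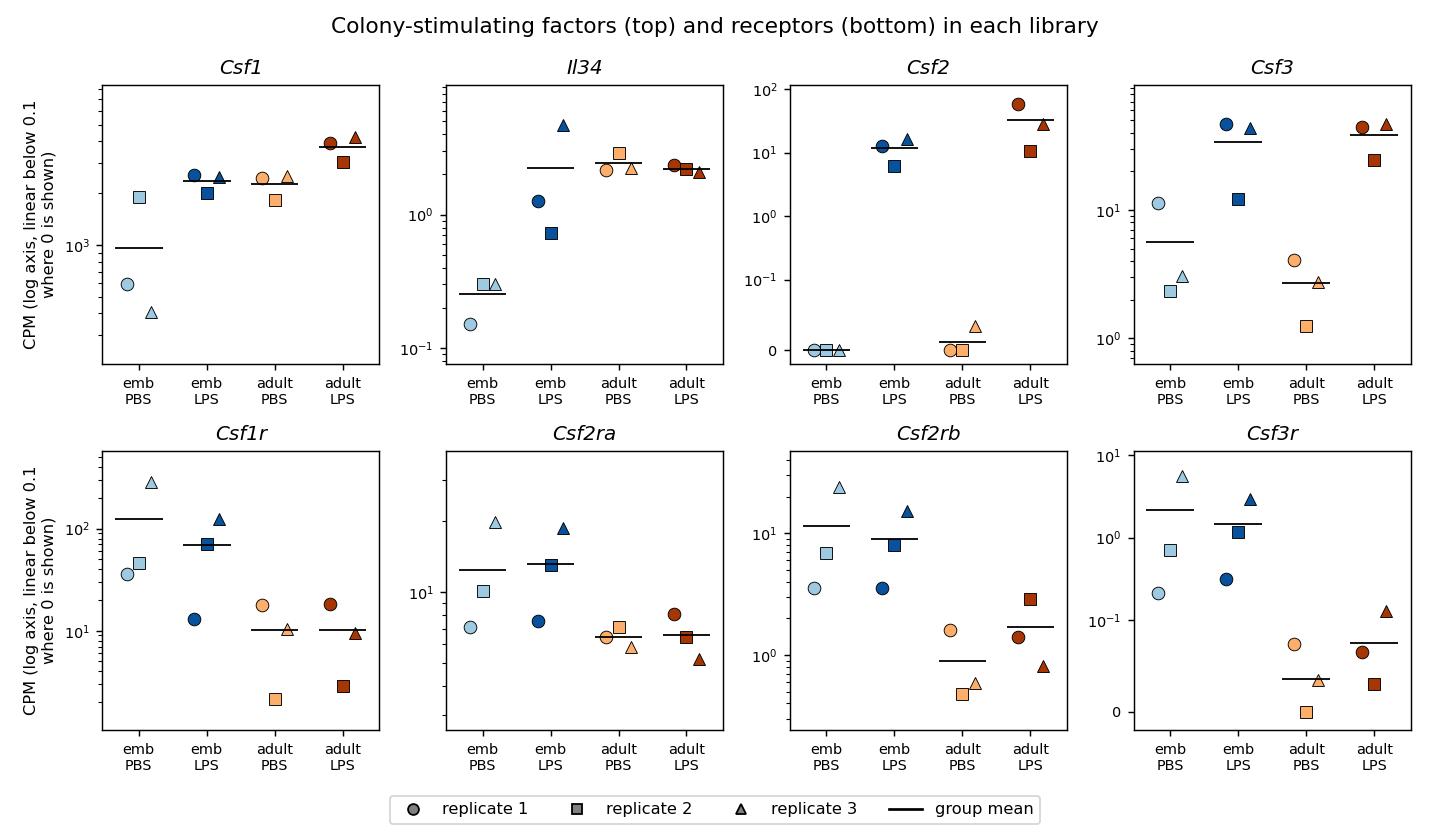
CPM of each member in each of the 12 libraries, with ligands in the upper and receptors in the lower row. Points are libraries, symbols give the replicate number and lines give group means; Csf2 lies at or near 0 in all PBS libraries, and replicate 3 is the highest embryonic library for each receptor.

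Divided by the exon length of each gene in GENCODE M21, Csf1 was the highest member in every group. Its level per kilobase was 205 ± 173 CPM in embryonic PBS, 496 ± 61.2 CPM in embryonic LPS, 479 ± 80.6 CPM in adult PBS and 790 ± 132 CPM in adult LPS libraries (mean ± SD, n = 3), and its range did not overlap that of the next member in any group. Among all listed genes, Csf1 ranked 16 to 38 by CPM in the LPS and adult libraries, 43 in embryonic PBS library 2, and 204 and 323 in embryonic PBS libraries 1 and 3. Behind it the order changed with LPS. With PBS the next member was Csf1r in embryonic cells (25.3 ± 29.3 CPM per kilobase) and Csf2ra in adult cells (3.47 ± 0.331), but the ranges of Csf1r and Csf2ra overlapped in both stages. With LPS the next were Csf3 (24.1 ± 13.5) and Csf2 (14.8 ± 6.58) in embryonic cells, and Csf2 (40.4 ± 30.2) and Csf3 (27.4 ± 8.72) in adult cells. These pairs of Csf2 and Csf3 overlapped in both stages, so their order is not resolved. In adult cells the ranges of Csf2 and Csf3 with LPS lay above those of all receptors. In embryonic cells they overlapped those of Csf1r and Csf2ra. Il34, the alternative ligand of CSF1R, stayed low: per kilobase, Csf1 was 205 to 2415 times Il34 in individual libraries.

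The ligands were examined first for their response to LPS. Of the 7 members that passed the filter on low counts, 2 passed the test in embryonic cells (Csf2 and Il34), where 2.75% of 13038 genes passed, and 1 passed in adult cells (Csf2), where 0.606% passed (edgeR quasi-likelihood test, Benjamini-Hochberg adjusted p under 0.05 over all tested genes). With the replicate block, 4 members passed in embryonic cells (Csf1, Il34, Csf2 and Csf3; 12.5% of genes) and 2 in adult cells (Csf2 and Csf3; 6.2% of genes). Every call was for a ligand and each was a rise. LPS and PBS libraries did not overlap for 4 of 4 ligands in embryonic cells and for 3 of 4 in adult cells, each with the LPS libraries higher, which held for 6.94% and 8.74% of all tested genes. They overlapped for all receptors in both stages.

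Csf2 encodes GM-CSF, a factor that activates macrophages and granulocytes and sustains dendritic cells. It had 0 counts in the embryonic PBS libraries, and 12.8, 6.13 and 16.5 CPM (364, 186 and 424 counts) in embryonic LPS libraries 1, 2 and 3. The adult PBS libraries held 0, 0 and 1 count, and adult LPS libraries 1, 2 and 3 held 58.3, 10.6 and 27.998 CPM (1795, 344 and 649 counts). All 6 LPS libraries were therefore far above all 6 PBS libraries. An antisense gene, Gm12223, overlaps Csf2 on the other strand, which held 14 counts against 3763 on the strand of Csf2. Set against 3 counts per library, the mean of the embryonic LPS libraries was at least 130-fold higher (adjusted p = 0.00326 by edgeR). In adult cells 2788 counts with LPS stood against 1 with PBS, a depth-corrected ratio of 2482 (95% interval 445 to 98063, exact, for counting error only; adjusted p = 0.00683 by edgeR). Leaving out any of the adult PBS libraries moved the adult adjusted p to between 0.0535 and 0.0966 by edgeR. In those fits only 4 to 14 of all tested genes passed. Fitting the embryonic libraries alone gave 0.0882, where only 4 of 12620 genes passed. The block gave 3.17e-05 in embryonic and 5.04e-05 in adult cells. With LPS, Csf2 was 11.8 ± 5.27 CPM in embryonic and 32.3 ± 24.2 CPM in adult cells (mean ± SD, n = 3), and this difference did not pass (adjusted p = 0.213 by edgeR).

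Csf3 encodes G-CSF, which drives the production and release of neutrophils. In embryonic PBS libraries 1, 2 and 3 it stood at 11.4, 2.32 and 3.06 CPM, and in the LPS libraries at 46.5, 12.1 and 43.7 CPM. The LPS libraries lay above the PBS libraries, the lowest of them by a narrow margin. In adult PBS libraries it stood at 4.05, 1.25 and 2.72 CPM, and in the LPS libraries at 44.5, 24.6 and 47.2 CPM, with a wide gap between the groups. Within pairs of the same number, Csf3 was 4.08, 5.21 and 14.3 times higher with LPS in embryonic cells and 10.98, 19.6 and 17.3 times higher in adult cells. In the model of all libraries without the block neither rise passed: the log2 fold change was 2.62 (SE 0.70, adjusted p = 0.0938) in embryonic and 3.85 (SE 0.75, adjusted p = 0.0565) in adult cells by edgeR. With the block both passed, at 2.74 (SE 0.33, adjusted p = 0.00134) and 3.91 (SE 0.35, adjusted p = 0.000604) by edgeR. Both also passed without a block by DESeq2 (adjusted p = 0.00309 and 2.3e-06), and the adult rise passed when the adult libraries were fitted alone by edgeR (adjusted p = 0.0149). Without embryonic LPS library 2 both passed without the block (adjusted p = 0.046 and 0.0359 by edgeR), and the adult rise also without embryonic PBS library 1 (0.0305). The interaction of stage and LPS for Csf3 did not pass (adjusted p = 0.513 with the block by edgeR), except when the embryonic pair of replicate 3 was left out (adjusted p = 0.0224).

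Csf1, the main growth factor of macrophages, was present at high level without LPS. Embryonic PBS libraries 1, 2 and 3 held 592, 1900 and 406 CPM, and the LPS libraries 2538, 2009 and 2475 CPM. Embryonic PBS library 2 stood apart from the other two at nearly the LPS level, and its pair was only 1.06 times higher with LPS against 4.29 and 6.10 times in pairs 1 and 3. In adult cells Csf1 stood at 2446, 1822 and 2511 CPM with PBS and at 3901, 3034 and 4248 CPM with LPS. The adult pairs were much alike, with 1.59, 1.67 and 1.69 times more Csf1 with LPS. The log2 fold change of Csf1 was 1.30 (SE 0.47, adjusted p = 0.273) in embryonic and 0.73 (SE 0.47, adjusted p = 1) in adult cells without the block. With the block the embryonic value passed at 1.65 (SE 0.41, adjusted p = 0.0383 by edgeR) and the adult value did not (0.73, SE 0.38, adjusted p = 0.389). The block model shares its spread between stages. Without the embryonic pair of replicate 2 the adult rise passed (0.73, adjusted p = 0.00453) and the interaction also passed, at 1.63 (adjusted p = 0.00401). Leaving out any other pair moved the embryonic adjusted p to between 0.0711 and 0.169. Fitted alone with the block, the adult libraries gave 0.73 with an adjusted p of 4.35e-05 and the embryonic libraries gave 1.63 with an adjusted p of 0.15 by edgeR. A block shared by both stages gave an embryonic adjusted p of 0.294. Without the block, leaving out embryonic PBS library 2 gave an embryonic value of 2.26 (adjusted p = 0.00673 by edgeR).

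Il34 encodes the other ligand of CSF1R, known chiefly from neurons and keratinocytes. It rested on few counts: 5, 10 and 10 in embryonic PBS libraries 1, 2 and 3 (0.151, 0.305 and 0.302 CPM) and 36, 22 and 120 in the LPS libraries (1.26, 0.725 and 4.68 CPM). The embryonic groups did not overlap, and the pairs were 8.34, 2.38 and 15.5 times higher with LPS. Adult cells held 2.17, 2.89 and 2.24 CPM with PBS and 2.37, 2.19 and 2.07 CPM with LPS, overlapping groups in which 1 of 3 pairs was higher with LPS. The log2 fold change was 3.12 (SE 0.63, adjusted p = 0.0276) in embryonic cells and -0.13 (SE 0.56, adjusted p = 1) in adult cells by edgeR. With the block the embryonic value was 2.91 (adjusted p = 0.00562). The embryonic call was lost when any embryonic PBS library was left out (adjusted p 0.0756 to 0.142 by edgeR). It was also lost without adult LPS library 3 (0.052) or adult PBS library 3 (0.0518). The same held when embryonic libraries were fitted alone (0.282), where only 4 of 12620 genes passed. It was kept by DESeq2, with no filter on low counts, with a block shared by both stages and with the block whichever pair was left out.

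The difference between stages in the LPS response was tested as an interaction. No member passed it, with 0% of all genes passing without the block (293 of 13038 at an unadjusted p under 0.05, and 25 by DESeq2 after adjustment) and 0.844% with it. Il34 came nearest, with a log2 interaction of 3.25 (SE 0.83, unadjusted p = 0.00286, adjusted p = 1) without the block and 3.03 (SE 0.58, adjusted p = 0.0768) with it. Without the embryonic pair of replicate 2 and with the block, 3 members passed: Il34 at 3.75 (adjusted p = 0.00962 by edgeR), Csf1 and Csf1r. In that fit 164 of 13240 genes passed the interaction. Without the embryonic pair of replicate 3, 1 member passed, Csf3, where 121 of 13138 genes passed.

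**Figure D2:**
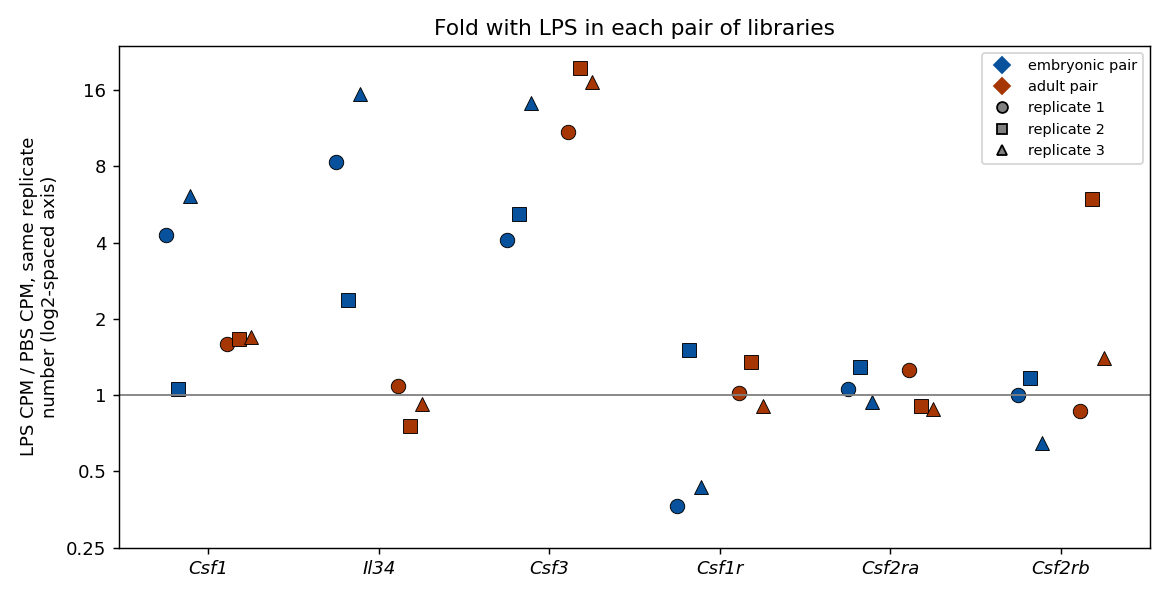
Ratio of LPS to PBS CPM for libraries of the same stage and replicate number, on a log2-spaced axis, for 6 members (Csf2 and Csf3r, with PBS libraries at 0, are left out). All Csf3 pairs and all embryonic Il34 pairs lie above 1, the 3 adult Csf1 pairs lie close together at 1.59 to 1.69, and receptor pairs fall on both sides of 1.

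**Figure D3:**
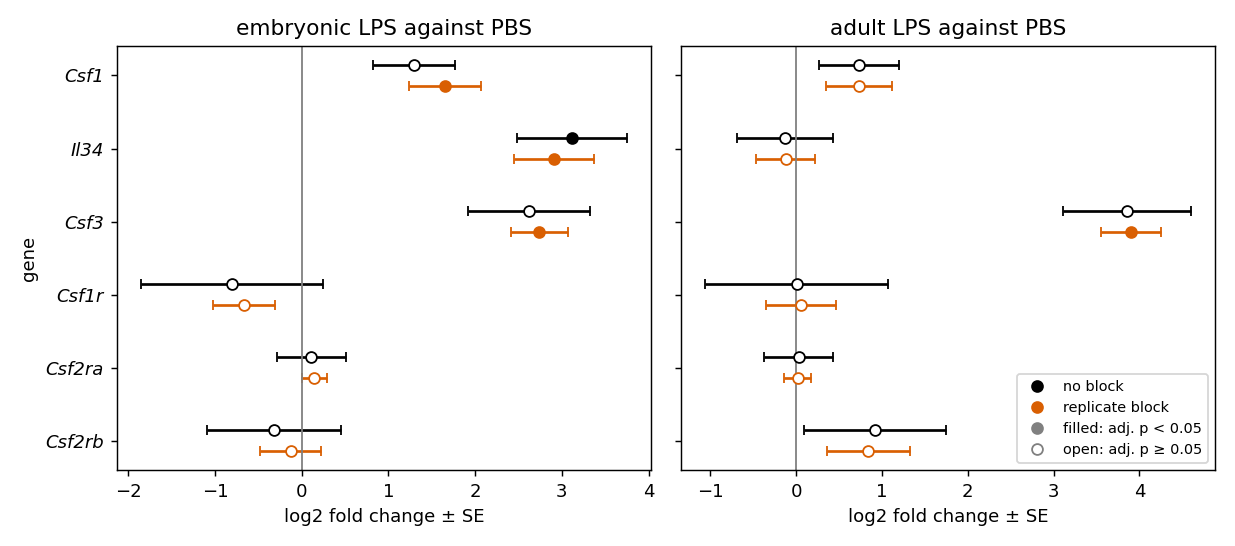
Log2 fold change with its SE for LPS against PBS in embryonic (left) and adult cells (right), without (black) and with (orange) the replicate block, filled where the adjusted p was under 0.05. The block narrows the SE of Csf3 from 0.70 to 0.33 in embryonic and from 0.75 to 0.35 in adult cells, and no receptor is filled.

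RefSeq promoter sequence of GRCm38.p6 was at hand for 4 of the 8 members. The 250 bases before the start of Csf1 (chr3:107760470-107760719, minus strand) and of Csf2 (chr11:54249900-54250149, minus strand) are shown because Csf1 was the most abundant member and Csf2 the one absent or nearly so without LPS. Capitals mark letters of the motifs searched on both strands.
Csf1: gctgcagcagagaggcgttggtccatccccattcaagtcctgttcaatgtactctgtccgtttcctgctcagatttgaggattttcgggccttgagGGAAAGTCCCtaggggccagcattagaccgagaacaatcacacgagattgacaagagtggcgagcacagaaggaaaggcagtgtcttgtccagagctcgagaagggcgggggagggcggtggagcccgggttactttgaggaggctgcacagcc
Csf2: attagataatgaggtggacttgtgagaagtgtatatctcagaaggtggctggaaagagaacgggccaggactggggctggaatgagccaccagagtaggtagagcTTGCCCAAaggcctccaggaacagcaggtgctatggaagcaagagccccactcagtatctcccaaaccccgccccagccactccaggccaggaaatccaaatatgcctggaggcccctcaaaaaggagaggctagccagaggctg
The motifs were the NF-kB consensus by its name, the CK-1 element of cytokine genes (GAGATTCC), AP-1 (TGANTCA), C/EBP (TTNNGNAA) and PU.1 (GAGGAAG). The capitals in Csf1 are a match to the NF-kB consensus on the opposite strand, 154 to 145 bases before the start, and 3.9% of 32851 promoter windows of this length held such a match. The capitals in Csf2 are a C/EBP match on the opposite strand, 145 to 138 bases before the start, which 36.8% of windows held. Neither window held letters of CK-1 (0.755% of windows), AP-1 (6.75%) or PU.1 (10.6%), and Csf2 held no match to the NF-kB consensus, which says only that these letters are not in the window. Both windows lie directly before the RefSeq gene record, and sequence before other starts of these genes was not searched.

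The receptors were examined next. Csf1r stood at 35.9, 46.5 and 289 CPM in embryonic PBS libraries 1, 2 and 3 and at 13.1, 70.2 and 125 CPM in the LPS libraries. Replicate 3 was highest in both groups, and the groups overlapped. Adult cells held 17.9, 2.12 and 10.5 CPM with PBS and 18.2, 2.87 and 9.49 CPM with LPS. Adult libraries of different replicate number thus differed far more than those of the same number did between treatments. The log2 fold change with LPS was -0.80 (SE 1.05) in embryonic and 0.01 (SE 1.07) in adult cells, and neither passed (adjusted p = 0.993 and 1 by edgeR). Embryonic pairs 1 and 3 had 0.365 and 0.432 times the PBS level with LPS, and pair 2 had 1.51 times. Without that pair and with the block, Csf1r passed at -1.31 (adjusted p = 0.000505 by edgeR) and the interaction at -1.36 (adjusted p = 0.0128). The longest transcript of Csf1r shares 17.3% of its 75-base stretches, mostly with the overlapping gene Hmgxb3 on the other strand, and the counts used were those of the gene's own strand.

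Csf2ra, the chain that binds GM-CSF, stood at 7.12, 10.1 and 20.0 CPM in embryonic PBS and 7.54, 13.02 and 18.8 CPM in embryonic LPS libraries. In adult cells it was 6.44, 7.09 and 5.86 CPM with PBS and 8.09, 6.44 and 5.18 CPM with LPS. The log2 fold change with LPS was 0.11 (SE 0.40) in embryonic and 0.03 (SE 0.40) in adult cells, well within the spread of the replicates. Csf2rb, the signalling chain shared with the IL-3 and IL-5 receptors, stood at 3.57, 6.88 and 23.9 CPM in embryonic PBS and 3.58, 8.04 and 15.4 CPM in embryonic LPS libraries. In adult cells it was 1.62, 0.482 and 0.586 CPM with PBS and 1.40, 2.87 and 0.820 CPM with LPS, and adult LPS library 2 lay above the rest with 93 counts. Its log2 fold change with LPS was -0.32 (SE 0.77) in embryonic and 0.92 (SE 0.83) in adult cells, and neither passed (adjusted p = 0.999 and 1 by edgeR). Csf2rb shares 10.7% of its 75-base stretches with its near-identical neighbour Csf2rb2, the mouse IL-3 specific beta chain, so part of its reads could not be placed uniquely. Csf2rb2 was 9.21 ± 8.95 and 0.584 ± 0.381 CPM in embryonic and adult PBS libraries (SD, n = 3).

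Csf3r was at or under 3 counts in every adult library and had 7, 23 and 186 counts (0.212, 0.701 and 5.63 CPM) in embryonic PBS and 9, 36 and 75 counts (0.316, 1.19 and 2.92 CPM) in embryonic LPS libraries. It did not reach 0.5 CPM in all libraries of any group and so was not tested in the model. Fitted with no filter, the embryonic value with PBS was higher at an adjusted p of 0.069 by edgeR, and no fold is given against a group at the counting floor. Neutrophil markers, among which CSF3R is best known, were near 0: the 9 that the files list of 10 summed to 0.103 to 0.916 CPM per library, with Elane at most 1 and Mpo at most 2 counts in any library.

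Embryonic and adult cells were then compared within each treatment. With PBS, 2 of 7 tested members passed (4.08% of genes): Il34 was lower in embryonic cells, with a log2 difference of -3.24 (SE 0.63, adjusted p = 0.0233 by edgeR), and Csf2rb was higher, with 3.65 (SE 0.88, adjusted p = 0.0484 by edgeR). Csf1r was 12.1-fold higher by the fit (log2 3.60, SE 1.16) and did not pass by edgeR (adjusted p = 0.111), though it did by DESeq2 (adjusted p = 0.00362). Csf2ra (0.94, SE 0.40, adjusted p = 0.229) and Csf1 (-1.22, SE 0.47, adjusted p = 0.181) did not pass either. All 4 receptors and Il34 had PBS libraries of one stage wholly to one side of the other stage, as did 24.5% of all tested genes. Both calls were lost when embryonic PBS library 1 or 3 or any adult PBS library was left out, where 152 to 314 genes passed. Leaving out embryonic PBS library 2 left 3 members (599 genes passing), among them Csf1 at -2.19 (adjusted p = 0.00414 by edgeR). Csf2rb lay nearer the threshold than Il34. Its call was also lost with no filter on low counts, with a block shared by both stages and with PBS libraries fitted alone. The same held without adult LPS library 1, 2 or 3 or embryonic LPS library 2. Il34 passed in each of these latter fits. With LPS, 0 of 7 members passed (5.31% of genes; by DESeq2 Csf1r and Csf2rb passed), with Csf1r at 2.79 (SE 1.12, adjusted p = 0.18) and Csf2rb at 2.42 (SE 0.82, adjusted p = 0.119) by edgeR. The LPS groups of both stages had Il34 at nearly equal means, 2.22 ± 2.14 and 2.21 ± 0.152 CPM (SD, n = 3), and the fitted log2 difference was 0.01 (SE 0.56).

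Across all 12 libraries, though not for every receptor within the adult cultures, receptor levels were higher where the macrophage sum was higher. Csf2rb had its highest adult level, 2.87 CPM, in LPS library 2, where that sum was lowest at 51.6 CPM. With the log2 sum of the 16 macrophage markers, log2 CPM had a Pearson r of 0.94 for Csf1r, 0.96 for Csf2ra, 0.91 for Csf2rb and 0.95 for Csf3r over the 12 libraries, against -0.51 for Csf1, -0.35 for Il34, -0.04 for Csf2 and 0.01 for Csf3. These r are descriptions, since LPS and PBS libraries of 1 number deviate together and the stages form separate clusters. The macrophage list itself had a median log2 difference of 4.38 between embryonic and adult PBS libraries over its 15 tested genes, against 0.02 over all genes. Of these 1 passed, where 4.08% of all genes passed. With LPS against PBS the list had medians of -0.07 in embryonic and 0.04 in adult cells. Of its genes 0 passed, where 2.75% and 0.606% of all genes passed. Its defining genes were present in all groups. Ptprc was 7.57 to 59.9 CPM, Itgam 6.78 to 80.2 CPM and Emr1 (Adgre1, F4/80) 13.4 to 139 CPM in embryonic PBS libraries. In adult PBS libraries they were 0.338 to 2.25, 0.289 to 3.50 and 0.627 to 6.74 CPM. Mertk, of the same list, had the higher mean in adult cells, with overlapping ranges. It was 4.27 to 26.9 CPM in embryonic and 10.6 to 44.4 CPM in adult PBS libraries. The mean macrophage sum of adult PBS libraries, 105 CPM, rested largely on Lyz2 (mean 42.6 CPM) and Mertk (24.6 CPM). In such bulk samples fewer cells of a type and less RNA per cell cannot be told apart, and the part of macrophages in the receptor levels was not tested.

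**Figure D4:**
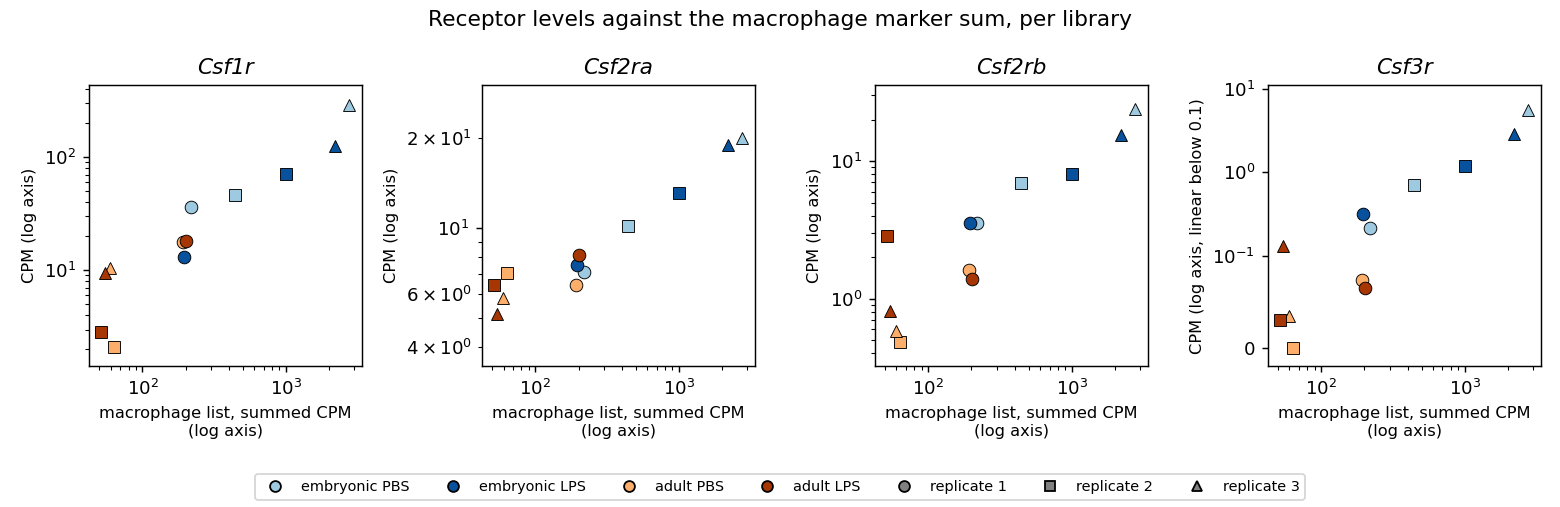
CPM of each receptor (log axis, for Csf3r linear below 0.1) against the summed CPM of 16 macrophage markers (log axis) in the 12 libraries, with colour for group and symbol for replicate number. The receptors are highest in embryonic replicate 3, where the macrophage sum is 2764 CPM with PBS and 2202 CPM with LPS.

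Relative to the macrophage sum the receptors differed from each other. Csf1r was 16.5, 10.5 and 10.5% of that sum in embryonic PBS libraries 1, 2 and 3 and 6.67, 6.97 and 5.67% in the LPS libraries. The CPM of Csf1r itself overlapped between these groups, and how other genes behave on this ratio was not examined. Single markers in the sum moved both ways with LPS in embryonic cells. Mean Ptprc was 25.7 CPM with PBS and 81.1 CPM with LPS, and mean Cx3cr1 was 108 and 9.52 CPM. In adult cells the ratio of Csf1r was 3.35 to 17.7% with PBS and 5.56 to 17.4% with LPS, overlapping ranges. Csf2ra was 0.722 to 3.85% of the sum in embryonic and 3.37 to 12.5% in adult libraries. Its level in adult libraries stayed within 5.18 to 8.09 CPM while the macrophage sum varied from 51.6 to 201 CPM. Csf2rb was 0.863 to 1.64% with PBS and 0.700 to 1.82% with LPS in embryonic cells, and 0.761 to 0.988% with PBS and 0.693 to 5.56% with LPS in adult cells. Csf3r was 0.0974 to 0.204% in embryonic libraries and 0 to 0.238% in adult libraries, the latter from at most 3 counts. No test was run on these ratios. With the block, 4 of the 15 tested macrophage markers rose and 1 fell with LPS in embryonic cells, where 12.5% of all genes passed. In adult cells 0 passed, where 6.2% of all genes passed.

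Short stretches around PU.1 letters are shown for the receptor genes with RefSeq promoters, since PU.1 is the myeloid factor best known from such genes. They lie at chr19:61228419-61228442 (minus strand) for Csf2ra and chr4:126024563-126024589 (plus strand) for Csf3r in GRCm38.p6, and capitals mark GAGGAAG.
Csf2ra: acctgcagatGAGGAAGAGGAAGc
Csf3r: tccttcctgaGAGGAAGgggctgtcta
Csf2ra held 2 such matches, in tandem within 14 bases of the start, and Csf3r held 1, 86 to 80 bases before it, where 10.6% of all windows held at least 1. The starts in this table lie 43 bases (Csf2ra) and 1218 bases (Csf3r) inside the RefSeq gene records, so these are the starts of the transcripts chosen there. The Csf2ra window also held a C/EBP match, and none of the NF-kB consensus, CK-1 or AP-1 was found in either window.

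The genes whose log2 CPM most resembled each member over the 12 libraries differed between ligands and receptors. Csf2 was most like Stx11 (r = 0.99), the neutrophil chemokine gene Cxcl1 (0.99) and Zc3h12a (0.98), which encodes an RNase that degrades cytokine mRNAs. Cxcl1 rose from a mean of 0.131 CPM with PBS to 398 CPM with LPS in embryonic and from 0.718 to 854 CPM in adult libraries. Csf3 was most like Zfp598, Bach1 (both 0.95) and 5330437I02Rik (0.94), and among members Csf2 and Csf3 had an r of 0.91. Csf1 was most like Spata5 (0.96), Cdc27 (0.95) and A930012L18Rik (0.94). Il34 was most like Pdzd2 (0.95), Pcgf5 (0.94) and Rasa4 (0.94). Csf1r was most like Slc11a1 (0.99), a metal transporter of phagosomes, Fermt3 and Trem2 (both 0.98), a receptor of macrophages. Csf2ra was most like Sdcbp, Anpep and the leukocyte gene Cd53 (each 0.96), and Csf2rb was most like Naip5 (0.97), Fmnl1 (0.97) and Sema4d (0.95). Csf1r, Csf2ra and Csf2rb correlated with one another at 0.84 to 0.88.

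Other genes of the pathway were taken from fixed lists. In the relay of signals from the receptors, all 21 genes were tested. With LPS 2 rose and 0 fell in embryonic cells and 0 passed in adult cells, where 2.75% and 0.606% of all genes passed. The medians were 0.10 and -0.0058 log2 against -0.00027 and -0.0075 over all genes. With the block 5 rose and 1 fell in embryonic cells and 2 rose in adult cells, where 12.5% and 6.2% of all genes passed. Jak2, the kinase bound to CSF2RB, rose from 48.5 ± 12.3 to 161 ± 96.0 CPM in embryonic cells (1.74, adjusted p = 0.0351 by edgeR). In adult cells Jak2 was 54.3 ± 6.73 with PBS and 133 ± 35.8 CPM with LPS, and it passed only with the block (1.27, adjusted p = 0.032 by edgeR). Stat5a, which relays GM-CSF signals, was 7.74 ± 0.899 and 33.8 ± 17.6 CPM in adult PBS and LPS libraries, and likewise passed only with the block (1.99, adjusted p = 0.0255 by edgeR). Jak1 in embryonic cells passed with the block (0.30, adjusted p = 0.0252), and Grb2 in adult cells passed in neither fit (0.27, adjusted p = 0.892 and 0.0718).

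Of 4 feedback inhibitors of cytokine receptors, 2 rose in embryonic cells and 0 passed in adult cells, with medians of 3.15 and 1.31 log2. Over all genes, 2.75% and 0.606% passed. Socs3, the inhibitor best known for restraining the G-CSF receptor, rose from 2.38 ± 1.11 to 119 ± 121 CPM in embryonic cells (log2 5.66, adjusted p = 0.0107 by edgeR). Socs1 rose from 0.810 ± 0.459 to 20.4 ± 15.9 CPM (4.66, adjusted p = 0.00598 by edgeR). In adult cells Socs3 was 3.65 ± 0.916 and 15.4 ± 10.99 CPM and Socs1 0.946 ± 0.417 and 2.63 ± 0.632 CPM with PBS and LPS, and neither passed with or without the block. Cish passed with the block in both stages, at 1.65 (adjusted p = 0.0035) in embryonic and 1.04 (adjusted p = 0.044) in adult cells by edgeR. With the block 3 inhibitors rose in embryonic and 1 in adult cells, against the same 12.5% and 6.2% of all genes.

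Of 13 myeloid transcription factors 11 were tested. In embryonic cells 1 rose and 1 fell (2.75% of all genes passed), and in adult cells 0 passed (0.606%). The medians were 0.68 log2 in both against -0.00027 and -0.0075 over all genes. With the block 6 rose and 2 fell in embryonic cells (12.5% of all genes passed) and 2 rose in adult cells (6.2%). Cebpa, a driver of myeloid and fat cell differentiation, fell from 18.1 ± 18.9 to 0.639 ± 0.247 CPM in embryonic cells (-4.77, adjusted p = 0.00948 by edgeR). Cebpd rose from 9.08 ± 2.13 to 66.6 ± 54.4 CPM (2.89, adjusted p = 0.0386 by edgeR). In adult cells Cebpd (2.19, adjusted p = 0.0132) and Cebpb (0.81, adjusted p = 0.0454) passed only with the block, and Egr1 in neither fit. Cebpb in embryonic cells passed only with the block (1.06, adjusted p = 0.0102).

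Among 13 other growth factors and receptors of blood cells, 4 were tested and 0 passed in either stage without the block. Over all genes, 2.75% passed in embryonic and 0.606% in adult cells. The medians of the list were 0.03 and 0.01 log2. Il3 and Epo were at 0 in all libraries. Kitl, the stem cell factor made by stroma, was 32.4 ± 11.6 CPM in adult PBS and 18.7 ± 7.49 CPM in adult LPS libraries, and fell with the block (-0.79, adjusted p = 0.0311 by edgeR). In embryonic cells Kitl was 50.4 ± 9.80 and 41.8 ± 9.28 CPM and did not pass. Il3ra and Flt3l did not pass in either stage or fit. Of the 3 proteins linked to IL-34 or CSF1R (Ptprz1, Sdc1 and Trem2), all tested, 0 passed in either stage or fit, with medians of 0.11 and -0.06 log2.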

How the data were processed

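The deposited tables held raw read counts per gene symbol, 1 table for each of the 12 libraries, with counts on either strand and on each strand apart. The authors made stranded, poly(A)-selected libraries, sequenced single-end reads, trimmed them with Trim Galore, used STAR for mapping to GRCm38.p6 and retained unique hits with no more than 1 mismatch. The counts on the gene's own strand were used; the opposite strand held 1.14 to 1.98% of gene counts. Rows that name no gene held 8.69 to 9.85% and were left out. Intervals and floors cover counting error only, since reads carried no molecular identifiers.

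Groups were taken from the labels. The 13038 genes over 0.5 CPM in every library of any group entered the test, following the study's methods, and were scaled with TMM and tested with edgeR 4.0.16 quasi-likelihood in R 4.3.3, 1 model of 12 libraries, 5 contrasts, with Benjamini-Hochberg adjusted p-values across those genes. The replicate number within a stage was the block in a second fit: LPS and PBS libraries of 1 number correlated at 0.610 to 0.850 in their deviations, while embryonic and adult libraries of 1 number did not (-0.306 to -0.002). The labels give the numbers, and no source states that pairs share a culture. DESeq2 1.42.0 was an alternative. The SE is the log2 fold change divided by the root of F. The fit code was also run on simulated counts with a fixed spread, which does not show how the fits perform on these data.

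Symbols were matched to RefSeq (GRCm38.p6); Emr1 is listed for Adgre1 and Sfpi1 for Spi1. Named genes are the 8 members, from each pathway list up to 3 genes with the lowest p in each LPS contrast, and the 3 genes most correlated with each tested member (log2 CPM, prior count 2). The members and lists were chosen with earlier results of these data known. A gene that this rule selects is not reported here. No protein sequences were used here. Figures were drawn with matplotlib.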

Additional observations from a re-analysis of the deposited data

How the results depend on the processing

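Of 106 counts of members passing under alternatives to the fit without the block, 68 equalled that fit and 38 did not; of 655 log2 fold changes, 581 kept their direction and side of the threshold, 28 lost and 19 gained the call, and 27 changed sign. With a pair left out of the fit with the block, 9 of 18 counts were equal, and of 120 log2 fold changes 104 kept both, 5 lost and 6 gained the call and 5 changed sign. In embryonic cells with LPS, where 2 members passed, 4 passed with the replicate block within stage, 3 with DESeq2, with the shared block and with that stage alone and the block, 1 at an adjusted p under 0.01 and 0 with that stage alone. In adult cells, where 1 passed, 2 passed with DESeq2, with either replicate block and with that stage alone, and 3 with that stage alone and the block. Between stages with PBS, where 2 passed, 3 passed by DESeq2 and 0 at an adjusted p under 0.01. Il34 alone passed with no filter, with filterByExpr, with the replicate block shared by both stages and with that treatment alone. With LPS, 2 passed by DESeq2 against 0. Over all tested genes, DESeq2 passed 684 against 358 in embryonic and 294 against 79 in adult cells, and 1552 against 532 (PBS) and 1704 against 692 (LPS) between stages. With the block 1635 and 808 genes passed with LPS and 110 in the interaction. The shared block passed 380 in embryonic and 109 in adult cells, and 891 between stages with PBS. Fits of that stage alone passed 4 of 12620 genes in embryonic and 227 of 12543 in adult cells, and with the block added 710 and 1808. Between stages with PBS, 432 of 18810 genes passed with no filter, 494 of 14094 with filterByExpr and 173 of 12725 with that treatment alone. With each library left out in turn, 1 to 3 members passed in embryonic and 0 to 2 in adult cells and 0 to 3 between stages with PBS. Over all tested genes, 95 to 471, 4 to 145 and 152 to 638 passed in these fits. Each pair left out in turn gave 0 to 3 members and 34 to 164 genes passing the interaction with the block.

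The changes of sign all concerned values that had not passed. For Csf1r with LPS in adult cells the value was -0.0044 with DESeq2 size factors and -0.0032 with no filter. For Il34 between stages with LPS it was -0.22 with the shared block and -0.0015 with that treatment alone. With 1 library left out in turn, log2 fold changes with LPS spanned -0.73 to 0.70 (Csf1r, adult), -1.56 to 0.78 (Csf1r, embryonic), -0.15 to 0.18 (Csf2ra, adult), -0.26 to 0.63 (Csf2ra, embryonic), -0.96 to 0.80 (Csf2rb, embryonic) and -0.20 to 0.017 (Il34, adult). Interactions spanned -1.56 to 0.77 (Csf1r) and -0.28 to 0.60 (Csf2ra). Differences between stages spanned -0.47 to 0.21 (Csf3, LPS), -0.0044 to 1.48 (Csf3, PBS) and -1.14 to 0.41 (Il34, LPS). With 1 pair left out and the block, they spanned -0.049 to 0.16 (Csf1r, adult), -0.15 to 0.090 (Csf2ra, adult), -0.015 to 0.30 (Csf2ra, interaction), -0.35 to 0.13 (Csf2rb, embryonic) and -0.25 to 0.014 (Il34, adult). The fits of 1 stage alone with the block and those with a pair left out were chosen after seeing the data. The cause of these changes was not tested. Each group held 3 libraries, and Il34, Csf3r and adult Csf2rb rest on few counts.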
